A study of Mus musculus with 106 samples.

Results

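The comparison covered the 24 of 106 libraries of the series made from RNA on tagged ribosomes of *Gad2* neurons, chosen by cell type (Gad2), preparation (RiboTag immunoprecipitation, IP), tissue and genotype. The libraries came from 6 Hdh Q7/Q200 mice, called HD here, and 6 Hdh Q7/Q7 littermates, called controls, each giving a library of the cerebrum, dissected without the olfactory bulb, and a library of the cerebellum. Mice were about 9 months old, on a 129S4 background, and carried a *Gad2*-IRES-Cre allele with an HA-tagged *Rpl22* allele. The question was whether the effect of the *Htt* expansion in *Gad2* neurons differed between the cerebrum and the cerebellum, with each mouse as its own block.

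*Gad2* encodes an enzyme that makes GABA, and its Cre line tags ribosomes in inhibitory neurons of many kinds. The cerebrum here was the brain without cerebellum and olfactory bulb, and so a mix of many regions. Its inhibitory neurons include the projection neurons of the striatum, the cells that degenerate earliest in Huntington's disease, and the interneurons of cortex and hippocampus. In the cerebellum they are the Purkinje cells and the basket, stellate and Golgi cells. Striatal projection neurons relay dopamine and adenosine signals through cyclic AMP, protein kinase A and phosphoproteins that restrain phosphatases, and several of these transcripts are known to fall when the expanded *Htt* is expressed.

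The 24 libraries held 24294234 to 93692505 counts (median 36393859), and the deepest was the cerebellar library of HD mouse 6, which had been sequenced again. *Slc32a1*, the vesicular GABA transporter, was at 646 to 988 CPM (median 821) in controls and 649 to 1101 (median 953) in HD mice in the cerebrum. In the cerebellum it was at 678 to 949.6 CPM (median 769) in controls and 645 to 1027 (median 742) in HD mice, and the groups overlapped in both tissues. *Gad1* was at 1266 to 1761 CPM (median 1649) in controls and 1141 to 1608 (median 1326) in HD mice in the cerebrum, also with overlap. The Purkinje cell gene *Car8* reached 3001 to 4299 CPM (median 3854) in cerebellar controls and 5.46 to 106 CPM (median 12.4) in cerebral controls, and the dopamine receptor gene *Drd1* reached 131 to 178 CPM (median 151) in cerebral controls and at most 0.262 CPM in cerebellar controls.

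Some libraries stood apart. On the first principal component of the cerebral libraries, which held 46.4% of their variance, control mouse 6 lay at 21.3 and HD mice 3, 5 and 6 at 50.9, 42.0 and 30.6, against −27.7 to −2.57 for the other 8. These 4 libraries also had the lowest cerebral *Gad2* levels, and *Gad2* spanned 256 to 506 CPM (median 469) in controls and 213 to 453 (median 308) in HD mice. Because 3 of these 4 mice were HD mice, results are also given without the 4. In the cerebellum, where the first component held 40.9% of the variance, HD mouse 4 lay at 58.8 and the other 11 libraries between −29.3 and 17.3. That library had the lowest cerebellar *Gad2* level, 152 CPM, and the highest *Pvalb* level, 6550.0 CPM.

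The test of the interaction between genotype and tissue covered 14472 protein-coding genes, and its coefficient is the log2 HD effect in the cerebellum minus that in the cerebrum. edgeR called 0 genes (0% of those tested), with a lowest adjusted p of 0.0752, and 1011 genes had an unadjusted p under 0.05, of which 576 were higher and 435 lower. DESeq2 with the same design called 21 (0.145%), 17 higher and 4 lower, and limma voom with the mouse as a random block called 0. When the fits were tested on simulated data, DESeq2 made 47 false calls of the interaction and edgeR 4. Of 100 genes given a log2 change of 1, DESeq2 recovered 69 and edgeR 46. The edgeR count of 0 can thus miss genes whose HD effect differs, and DESeq2 calls can be false. The simulated counts had no mouse effect and no library that stood apart, and only genes with higher counts in both tissues were changed. The numbers recovered and falsely called need not hold for the real data. Leaving out control mouse 2 gave 2 edgeR calls, *Arpp19* and *Id4*, and leaving out any other mouse gave 0. The number of genes with an unadjusted p under 0.05 was 538, 582, 573 and 643 without HD mouse 3, HD mouse 5, HD mouse 6 and control mouse 4, and 1535 and 1964 without HD mice 1 and 4. Without the 4 mice that stood apart it was 334, with 0 calls. Of the genes tested, 325 had a mean count of 10 or less in the cerebrum and 516 in the cerebellum.

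For each mouse, the log2 level in the cerebellum minus that in the cerebrum was also taken directly. Groups of 6 did not overlap in this mouse difference for 71 genes (0.491% of those tested), 38 with HD mice above controls and 33 below. The genes named for the interaction were the 24 of smallest p, and none of the 24 passed the edgeR threshold. Of these, 19 had a positive coefficient, 18 had a lower cerebral level in HD mice, 13 had mouse differences that did not overlap, and 19 were called by DESeq2. Because the 24 were chosen by p on these same counts, the counts of 13 and 19 follow largely from that choice. They are not separate support for the genes. The other 2 DESeq2 calls, *Tox3* (1.86) and *Gm2956* (4.48), lie outside this rule and were looked up after the values were seen.

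**Figure D1:**
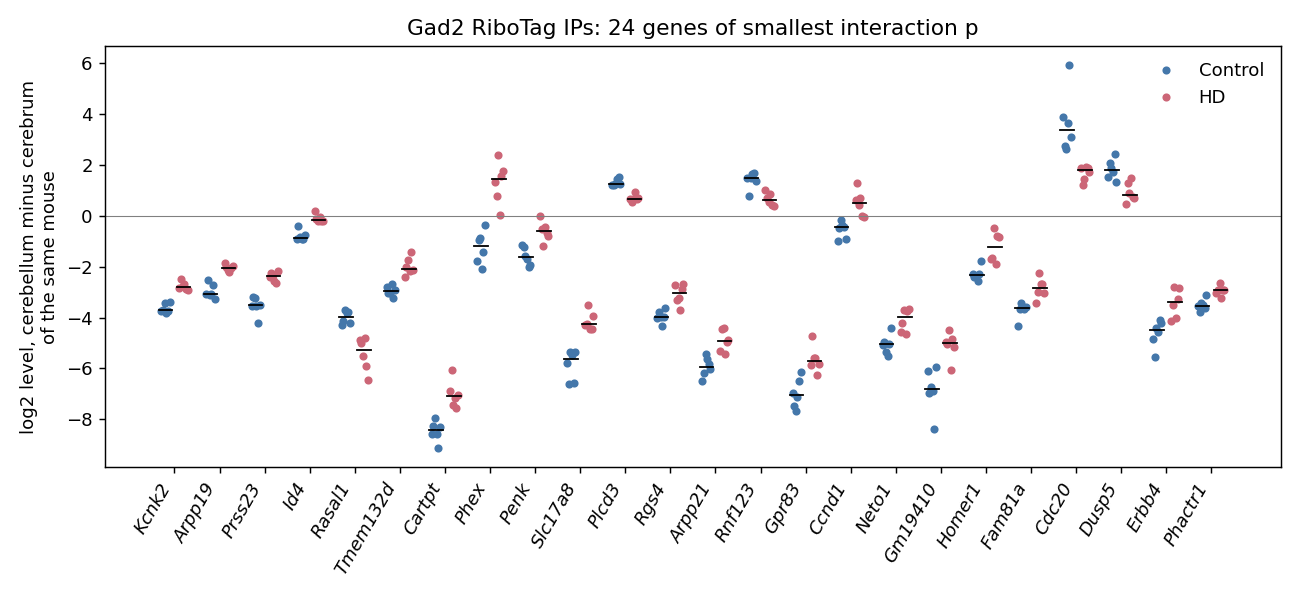
Log2 CPM in the cerebellum minus log2 CPM in the cerebrum for each control and HD mouse, for the 24 genes of smallest interaction p, with a point per mouse and a line at the group median. *Kcnk2* and *Arpp19* differences of all 6 HD mice lie above those of all 6 controls.

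The smallest p belonged to *Kcnk2* (ENSMUSG00000037624.15, chromosome 1, 189207930 to 189402273, minus strand), which encodes the TREK-1 potassium leak channel. In the cerebrum it was at 69.95 to 88.2 CPM (median 78.8) in controls and 56.7 to 77.6 (median 65.6) in HD mice. In the cerebellum it was at 5.51 to 6.66 CPM (median 6.44) in controls and 8.06 to 12.03 (median 9.26) in HD mice. All 6 HD mice were above all 6 controls in the cerebellum, while the cerebral groups overlapped. The mouse difference ran from −3.81 to −3.39 (median −3.71) in controls and from −2.93 to −2.48 (median −2.82) in HD mice, without overlap. The interaction was 0.87 ± 0.13 (log2 ± SE, edgeR adjusted p 0.0752, DESeq2 adjusted p 1.07e-06), made of −0.26 in the cerebrum and 0.61 in the cerebellum. It was 1.02 without the 4 mice that stood apart. With TMM factors taken within each tissue, edgeR called *Kcnk2* (adjusted p 0.045).

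*Arpp19* encodes a small cAMP-regulated phosphoprotein that, once phosphorylated, inhibits the phosphatase PP2A (ENSMUSG00000007656.13, chromosome 9, 75037614 to 75060313, plus strand). Its cerebral level was 282 to 458 CPM (median 416) in controls and 173 to 237 (median 193) in HD mice, and its cerebellar level was 33.7 to 63.9 CPM (median 50.99) in controls and 38.1 to 64.5 (median 45.96) in HD mice. Every HD mouse was below every control in the cerebrum, and the cerebellar groups overlapped. Mouse differences ran from −3.29 to −2.52 (median −3.06) in controls and from −2.20 to −1.88 (median −2.04) in HD mice, without overlap. The interaction was 0.92 ± 0.14 (edgeR adjusted p 0.0752, DESeq2 adjusted p 1e-06). It was called without control mouse 2 (1.03, adjusted p 0.0085) and with TMM factors within each tissue (0.95, adjusted p 0.045), and it was 0.87 without the 4 mice that stood apart.

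The striatal list described below holds 4 of the 24 genes, *Arpp19*, *Penk*, *Rgs4* and *Arpp21*. *Penk*, the precursor of the enkephalins of indirect-pathway neurons, was at 1601 to 2189 CPM (median 2051) in controls and 778 to 1500.5 (median 1088) in HD mice in the cerebrum and at 501 to 888 CPM (median 647) in controls and 548 to 1113 (median 655) in HD mice in the cerebellum. *Rgs4*, which speeds GTP hydrolysis by G protein alpha subunits, was at 277 to 355 CPM (median 314) in controls and 177 to 204 (median 187) in HD mice in the cerebrum and at 13.6 to 25.9 CPM (median 20.7) in controls and 14.9 to 30.9 (median 22.4) in HD mice in the cerebellum. *Arpp21*, another cAMP-regulated phosphoprotein gene, was at 822 to 932 CPM (median 871) in controls and 439 to 647 (median 489.7) in HD mice in the cerebrum and at 10.3 to 20.4 CPM (median 13.9) in controls and 14.7 to 21.3 (median 15.7) in HD mice in the cerebellum. For *Penk*, *Rgs4* and *Arpp21* all 6 HD mice were below all 6 controls in the cerebrum, and the cerebellar groups overlapped. Their interactions were 1.01 ± 0.20, 0.87 ± 0.19 and 1.02 ± 0.22, with edgeR adjusted p of 0.318, 0.398 and 0.398 and DESeq2 adjusted p of 0.00525, 0.0105 and 0.0125. Without the 4 mice that stood apart they were 1.22, 0.78 and 0.85. Mouse differences overlapped between the groups for *Penk* and *Rgs4* but not for *Arpp21*.

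*Prss23*, a secreted serine protease gene, had HD effects of opposite sign in the cerebrum (−0.47) and the cerebellum (0.64), neither of them called by edgeR. Its cerebral level was 19.4 to 23.5 CPM (median 21.97) in controls and 14.1 to 17.7 (median 16.4) in HD mice and its cerebellar level 1.02 to 2.51 CPM (median 1.80) in controls and 2.61 to 3.48 (median 2.90) in HD mice. HD mice lay below all controls in the cerebrum and above all controls in the cerebellum. The interaction was 1.15 ± 0.19 (edgeR adjusted p 0.186, DESeq2 0.000224). *Id4* encodes a helix-loop-helix protein that blocks DNA binding by its partners, and its mouse difference ran from −0.94 to −0.42 (median −0.87) in controls and from −0.22 to 0.17 (median −0.16) in HD mice. These did not overlap, and the interaction was 0.69 ± 0.12 (edgeR adjusted p 0.241, DESeq2 0.000125). *Id4* was called by edgeR without control mouse 2 (0.79, adjusted p 0.037).

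*Homer1*, a postsynaptic scaffold, was at 82.7 to 133 CPM (median 116) in controls and 36.5 to 85.99 (median 58.3) in HD mice in the cerebrum. *Gpr83*, a G protein-coupled receptor gene, was at 89.5 to 111 CPM (median 94.1) in controls and 51.8 to 82.2 (median 56.8) in HD mice. *Neto1*, an auxiliary subunit of kainate receptors, was at 83.4 to 161 CPM (median 144) in controls and 63.2 to 135 (median 73.9) in HD mice. Cerebral groups did not overlap for *Gpr83* and overlapped for *Homer1* and *Neto1*. The interactions were 1.06 ± 0.25, 1.40 ± 0.32 and 0.99 ± 0.23, each with an edgeR adjusted p of 0.55 and a DESeq2 adjusted p of 0.0391, and without the 4 mice that stood apart they were 0.64, 1.88 and 0.74. Cerebellar *Gpr83* was at 0.374 to 1.16 CPM in controls and 0.663 to 2.21 in HD mice. The size of its interaction therefore rests in part on low levels. The neuregulin receptor gene *Erbb4* (1.20 ± 0.29), the phosphatase and actin regulator gene *Phactr1* (0.55 ± 0.14), *Tmem132d* (0.98 ± 0.19) and *Fam81a* (0.86 ± 0.20) had coefficients of the same sign, and that of *Erbb4* was 0.81 without the 4 mice. *Phex*, a membrane endopeptidase gene, was low in both tissues, with a median of 0.893 CPM in cerebral controls against 0.266 CPM in HD mice, and its interaction was 3.01 ± 0.61 (DESeq2 adjusted p 0.00286).

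Mean counts in the cerebellum were 10 or less for *Cartpt*, a neuropeptide gene, for *Slc17a8*, a vesicular glutamate transporter gene, and for *Gm19410*. Cerebellar *Cartpt* was at 0 to 0.0499 CPM (median 0.0145) in controls and 0.0531 to 0.258 CPM (median 0.135) in HD mice, and *Slc17a8* at 0 to 0.150 CPM (median 0.0449) and 0.159 to 0.339 CPM (median 0.246). Their interactions were 2.96 ± 0.59 and 2.65 ± 0.54, and that of *Gm19410* was 1.78 ± 0.41. With cerebellar levels this close to 0, the sizes of these coefficients and the order of the groups rest on few reads.

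Negative coefficients were found for 5 of the 24. *Rasal1*, which turns off Ras, was at 30.7 to 43.8 CPM (median 32.9) in controls and 28.6 to 50.3 (median 42.8) in HD mice in the cerebrum. Its cerebellar level was 1.58 to 2.31 CPM (median 2.27) in controls and 0.404 to 1.46 (median 0.941) in HD mice. HD mice were all below controls in the cerebellum and overlapped with them in the cerebrum, with an interaction of −1.53 ± 0.29 (edgeR adjusted p 0.318, DESeq2 0.00171), which was −1.005 without the 4 mice that stood apart. *Plcd3*, a phospholipase C gene (−0.61 ± 0.13), *Rnf123*, a ubiquitin ligase gene (−0.76 ± 0.17), *Cdc20*, an activator of the anaphase-promoting complex (−1.86 ± 0.45), and *Dusp5*, a nuclear phosphatase of ERK (−0.91 ± 0.22), had the same sign. Mouse differences did not overlap for *Rasal1*, *Plcd3* and *Cdc20* and overlapped for *Rnf123* and *Dusp5*.

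Within the cerebrum, edgeR called 4 of 14342 genes (0.0279%), each of them lower in HD mice, and 1319 had an unadjusted p under 0.05. With mice of the same number as a replicate block, edgeR called 9, and 2505 genes had an unadjusted p under 0.05. DESeq2 called 75, of which 65 were lower (0.453% of 14334) and 10 higher. The groups did not overlap, with HD below control, for 56 genes (0.39%). Leaving out HD mouse 4 gave 20 calls, and leaving out HD mouse 5, HD mouse 6, control mouse 1 or control mouse 3 gave 3 in each case, since *Arpp21* was then not called. Genes with an unadjusted p under 0.05 numbered 2377 and 2417 without HD mice 1 and 2, and 680, 767, 728, 876 and 830 without HD mice 3, 5 and 6 and control mice 2 and 3. Without the 4 libraries that stood apart there were 0 calls and 280 genes with an unadjusted p under 0.05, from 5 controls and 3 HD mice.

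The lowest adjusted p in the cerebrum belonged to *Ddit4l* (ENSMUSG00000046818.7, chromosome 3, 137621612 to 137628333, plus strand), whose product restrains the growth kinase complex mTORC1. It was at 10.7 to 13.8 CPM (median 12.01) in controls and 2.41 to 5.22 (median 2.91) in HD mice. All 6 HD mice were below all 6 controls, and the log2 fold change was −1.95 ± 0.18 (adjusted p 0.000524). In the cerebellum it did not exceed 0.406 CPM in any library, with a mean count of 10 or less, and the interaction was 2.39 ± 0.80 (adjusted p 0.695). The other 3 calls were *Rgs4* (−0.77 ± 0.09, adjusted p 0.00368), *Arpp19* (−1.01 ± 0.13, 0.00768) and *Arpp21* (−0.78 ± 0.11, 0.0133). Without the 4 libraries that stood apart, the values were −1.71 for *Ddit4l*, −0.68 for *Rgs4*, −0.97 for *Arpp19* and −0.63 for *Arpp21*. A lower level in pooled *Gad2* ribosomes can come from fewer cells of a type or from less RNA per cell, and fewer cells of a type and less RNA per cell cannot be told apart.

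Within the cerebellum, edgeR called 2 of 14098 genes (0.0142%), *Ccnd1* higher and *Grm4* lower, and 340 had an unadjusted p under 0.05. DESeq2 called 22, of which 6 were higher and 16 lower. Both edgeR calls were lost when any library other than that of HD mouse 4 was left out, so that 11 of 12 such fits had 0 calls, and leaving out HD mouse 4 gave 3. With mice of the same number as a replicate block there were 0 calls (*Ccnd1* adjusted p 0.0556, *Grm4* 0.119) and 462 genes with an unadjusted p under 0.05. There were also 0 calls with all gene types, and 1 with filterByExpr or with DESeq2 size factors. Genes with an unadjusted p under 0.05 numbered 641 without HD mouse 4 and 568 without control mouse 2. Without the 4 mice whose cerebral libraries stood apart there were 0 calls, with *Ccnd1* at 1.29 and *Grm4* at −0.72.

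*Ccnd1* encodes cyclin D1, which drives the step from G1 into S phase in dividing cells (ENSMUSG00000070348.5, chromosome 7, 144929931 to 144939925, minus strand). In the cerebellum it was at 6.83 to 9.83 CPM (median 7.89) in controls and 13.4 to 28.2 (median 20.02) in HD mice. All 6 HD mice were above all 6 controls, and the log2 fold change was 1.32 ± 0.18 (adjusted p 0.0378). In the cerebrum it was at 9.26 to 16.001 CPM (median 12.01) in controls and 8.15 to 21.2 (median 15.3) in HD mice, with overlap and a log2 fold change of 0.28 ± 0.22 (adjusted p 0.587). Mouse differences ran from −1.01 to −0.15 (median −0.45) in controls and from −0.05 to 1.30 (median 0.50) in HD mice, without overlap, and the interaction was 1.06 ± 0.24 (edgeR adjusted p 0.55, DESeq2 0.036). The interaction was 1.37 without the 4 mice that stood apart.

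*Grm4* encodes a presynaptic metabotropic glutamate receptor and was also listed among granule cell genes. In the cerebellum it was at 85.6 to 129.7 CPM (median 103) in controls and 48.2 to 73.02 (median 58.8) in HD mice. All 6 HD mice were below all 6 controls, and the log2 fold change was −0.88 ± 0.13 (adjusted p 0.0378). In the cerebrum it was at 71.2 to 105 CPM (median 84.1) in controls and 66.8 to 97.8 (median 84.6) in HD mice, with overlap, and the interaction was −0.81 ± 0.20 (edgeR adjusted p 0.66, DESeq2 0.0668). Cerebellar *Igfbp5*, which encodes a binding protein of insulin-like growth factors, was at 92.5 to 135 CPM (median 108) in controls and 55.7 to 81.6 (median 73.7) in HD mice. The groups did not overlap, and the log2 fold change was −0.64 ± 0.12 (edgeR adjusted p 0.179, DESeq2 0.000498). The interaction of *Igfbp5* was −0.24 with TMM factors within each tissue (edgeR adjusted p 0.774). It was −0.27 with the mouse left out of the model (edgeR adjusted p 0.843). *Plk5*, a polo-like kinase gene expressed in neurons, was at 11.5 to 28.8 CPM (median 20.99) in controls and 6.38 to 16.4 (median 8.45) in HD mice, with overlap and a log2 fold change of −1.18 ± 0.24 (edgeR adjusted p 0.322, DESeq2 0.00628). *Cdkn1a*, which encodes a cyclin-dependent kinase inhibitor, had −0.70 ± 0.16 (edgeR adjusted p 0.557, DESeq2 0.0493).

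**Figure D2:**
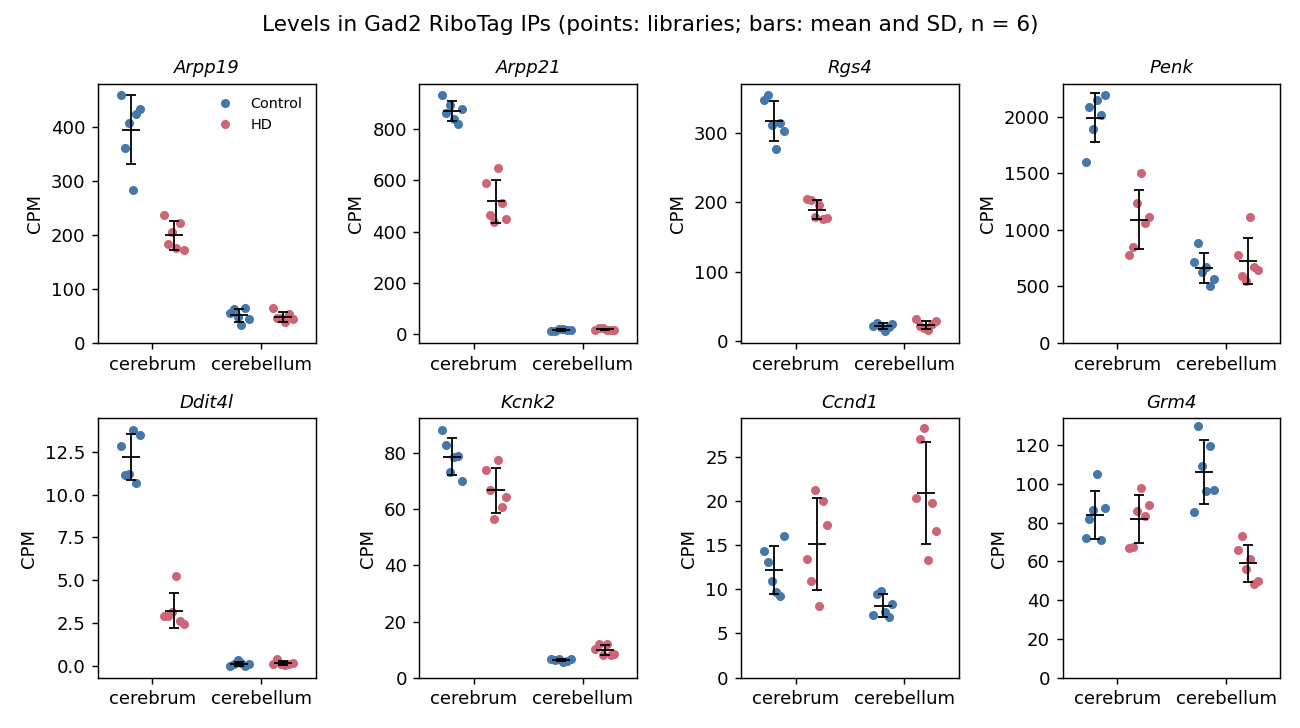
CPM of 8 named genes in each cerebral and cerebellar *Gad2* library on linear axes, by genotype, with a point per library and bars for the mean and SD of 6. Cerebral *Arpp19* of all 6 HD mice lies below that of all 6 controls, and cerebellar *Ccnd1* of all 6 HD mice lies above that of all 6 controls.

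Averaged over both tissues, limma voom called 0 of 14472 genes (0%), with 592 at an unadjusted p under 0.05, and edgeR on the summed counts of each mouse called 1, *Ddit4l* (−2.01, adjusted p 0.0152). Its cerebellar level was at most 0.406 CPM, so this sum was close to the cerebral count alone. The lowest voom adjusted p was that of *Slc4a11*, a membrane transporter gene, at −1.51 ± 0.27 (adjusted p 0.0935), looked up after its values were seen. *Arpp19* had −0.52 ± 0.11 and *Ccnd1* 0.76 ± 0.17, each with an adjusted p of 0.251. Leaving out HD mouse 4 gave 2 voom calls and leaving out control mouse 4 gave 1. The number at an unadjusted p under 0.05 was 349 without HD mouse 3, 992, 931 and 986 without HD mice 1 and 2 and control mouse 4, and 202 without the 4 mice that stood apart, with 0 calls.

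Striatal projection neuron genes were examined as a list of 30, of which *Penk* was the most abundant per length in cerebral controls. Their summed cerebral level was 12745 to 15214 CPM (median 14351) in controls and 8557 to 11836 (median 9783) in HD mice. All 6 HD mice were below all 6 controls in the cerebrum. In the cerebellum the sum was 4132 to 5747 CPM (median 4225) in controls and 3814 to 6172 (median 4141) in HD mice, with overlap. The most abundant member per length there was *Pcp4*, which is also on the Purkinje list, and *Isl1* had no counts. The cerebral and cerebellar sums are thus led by different genes. The median log2 fold change was −0.51 over the 30 genes in the cerebrum and 0.03 over the 25 tested in the cerebellum, against 0.00 and −0.01 over all genes tested, and each of the 30 cerebral values was below 0. The median interaction was 0.60 against 0.01 over all genes tested, with 0 of 30 below 0. Only 25 of the 30 passed the count filter in the cerebellum. The median and the counts of the interaction therefore rest in part on genes with few or no cerebellar counts. An unadjusted p under 0.05 was reached by 17 of the 30 in the interaction, all higher, and by 20 in the cerebrum, all lower, against 576 of 14472 higher and 715 of 14342 lower over all genes tested. edgeR called 0 of the 30 in the interaction and 3 in the cerebrum, against 0% and 0.0279% of all genes tested, and DESeq2 called 4 and 10, against 0.145% and, for lower genes, 0.453%. The list was chosen with earlier results of these data known. It holds genes that the study had reported as lower in the cerebrum of these mice, so its excess over all genes is not independent of these data.

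In the cerebrum, 8 of the 30 had no overlap between the groups, against 56 of 14342 genes (0.39%) with HD below control over all genes tested, and the 8 were *Arpp19*, *Penk*, *Rgs4*, *Arpp21*, *Scn4b*, *Pde10a*, *Adora2a* and *Drd1*. *Pde10a*, the phosphodiesterase that breaks down cyclic nucleotides in these neurons, was at 229 to 409.5 CPM (median 319.8) in controls and 129.98 to 225 (median 167) in HD mice. *Drd1*, the dopamine D1 receptor gene of direct-pathway neurons, was at 131 to 178 CPM (median 151) in controls and 87.8 to 122 (median 99.5) in HD mice. *Drd2*, its counterpart in indirect-pathway neurons, was at 145 to 195 CPM (median 152) in controls and 98 to 158 (median 126) in HD mice. *Drd2* overlapped between the groups, and the log2 fold changes were −0.84 ± 0.18, −0.58 ± 0.11 and −0.35 ± 0.12 (edgeR adjusted p 0.175, 0.0907 and 0.536). DESeq2 gave *Pde10a* an adjusted p of 0.00404 and *Drd1* 0.000342. *Drd1* had a mean count of 10 or less in the cerebellum. *Ppp1r1b*, which encodes the phosphatase inhibitor DARPP-32, was at 2002 to 2784 CPM (median 2172) in controls and 1129 to 2154 (median 1526) in HD mice, with overlap, a cerebral log2 fold change of −0.58 ± 0.16 and an interaction of 0.37 ± 0.26 (adjusted p 0.712). *Pcp4*, a calmodulin-binding peptide gene shared by the striatal and Purkinje lists, had −0.59 in the cerebrum and −0.02 in the cerebellum.

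The wider list of cAMP and G protein signalling genes, which shares members with the striatal list, had a median interaction of 0.45 over 45 genes, with 20 higher and 1 lower at an unadjusted p under 0.05, against 576 and 435 of the 14472 genes tested. Its median was −0.33 over 46 genes in the cerebrum and −0.02 over the 41 that passed the count filter in the cerebellum. Its median interaction therefore rests in part on genes with few or no cerebellar counts. edgeR called 0 of the 45 in the interaction and 3 of the 46 in the cerebrum, all lower, and 0% and 0.0279% of all genes tested. DESeq2 called 3 and 9, and 0.145% and, for lower genes, 0.453% of all genes tested. Its most abundant cerebral member per length was *Ppp1r1b*. This list too was chosen with earlier results of these data known. *Prkar1b*, a regulatory subunit of protein kinase A, had 0.21 ± 0.10 in the cerebrum (adjusted p 0.536) and an interaction of −0.16 ± 0.13 (adjusted p 0.741), each of the opposite sign to the median of the list.

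Forebrain interneuron genes had a median interaction of 0.57 over 21 genes. Of these, 2 were higher and 0 lower at an unadjusted p under 0.05, against 576 and 435 of the 14472 genes tested. Only 10 of the 21 passed the count filter in the cerebellum, so this median rests in part on genes with few or no cerebellar counts. Their median HD effect was −0.12 over the 21 genes in the cerebrum. There, 18 were below 0 and 5 lower at an unadjusted p under 0.05, against 7267 and 715 of 14342 over all genes tested. In the cerebellum the median was 0.16 over the 10 that were tested, with 3 below 0, against 7455 of 14098. *Sst*, the somatostatin gene, was at 692 to 898 CPM (median 797) in controls and 592 to 939.7 (median 762) in HD mice in the cerebrum, with overlap, and its interaction was 0.63 ± 0.42 (adjusted p 0.704). *Npy* in the cerebellum was at 34.8 CPM in HD mouse 4, 20.9 CPM in HD mouse 2 and 10.6 CPM in control mouse 5, against medians of 2.02 CPM in controls and 1.83 CPM in HD mice. Purkinje cell genes had a summed cerebellar level of 33524 to 43438 CPM (median 39187) in controls and 32006 to 36547 (median 35051) in HD mice. These overlapped, and the median cerebellar log2 fold change of the 28 genes was −0.14, with 27 of 28 below 0 and 6 lower at an unadjusted p under 0.05, against 7455 and 243 of 14098 over all genes tested. *Car8* had −0.15 ± 0.11 and *Pvalb* −0.04 ± 0.24 in the cerebellum (adjusted p 1 for each). The median interaction was −0.15 for Purkinje cell genes, 0.08 for the 14 cerebellar interneuron genes, which include *Kit* (0.04), *Lgi2* (0.12) and *Kcna2* (0.19), and −0.10 for 6 general GABA neuron genes, which include *Gad1* (0.08) and *Slc32a1* (−0.15). *Gad2* itself had 0.45 ± 0.35 (adjusted p 0.73), which was −0.06 without the 4 mice that stood apart. edgeR called 0 genes of these 4 lists in the interaction, the cerebrum and the cerebellum, against 0%, 0.0279% and 0.0142% of all genes tested. DESeq2 called 0 in the interaction, against 0.145%. Lower in the cerebrum, DESeq2 called 2 of 21 forebrain interneuron genes and 1 of 28 Purkinje cell genes, against 65 of 14334 (0.453%). At an unadjusted p under 0.05 the interaction was higher for 1 and lower for 2 Purkinje cell genes. It was higher for 1 cerebellar interneuron gene and neither for the 6 GABA neuron genes. Over all 14472 genes tested, 576 were higher and 435 lower.

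Genes of other cell types were also detected in the IPs. Microglia genes had a median interaction of −0.95 over 12 genes, with all 12 below 0 and 5 lower at an unadjusted p under 0.05, against 7007 and 435 of 14472 over all genes tested. Their cerebral median was 0.73, with 8 higher at an unadjusted p under 0.05, against 604 of 14342. Their cerebral sum was 134 to 299 CPM (median 188) in controls and 149 to 569.96 (median 293) in HD mice, highest in mouse 6 of each group and overlapping. Without the 4 libraries that stood apart it was 134 to 233 CPM in controls and 149 to 298 in HD mice. *C1qa* had −0.92 ± 0.47 in the interaction and *C1qb* −1.23 ± 0.50 (adjusted p 0.695 for each). Astrocyte genes had a median interaction of 0.11, with 5 of 12 below 0. Their cerebellar sum was 4819.7 to 6364 CPM (median 5905) in controls and 3923 to 4955 (median 4116) in HD mice, led by *Aldoc*, which Purkinje cells also express, and *Aldoc* had −0.69 ± 0.23 (adjusted p 0.695). *Apoe* had −0.12 and *S100b* −0.06. Oligodendrocyte genes had a median of −0.12, with *Mbp* at −0.18 and *Cnp* at −0.20. Granule cell genes had a median of −0.08, with *Cbln3* at −0.19, *Zic1* at 0.01 and *Gabra6* at −0.11. Cerebral glutamatergic genes had 0.59, with 3 of 12 below 0 and 10 of 12 past the count filter in the cerebellum. The 3 with the highest level per length in cerebral controls were *Camk2a* at −0.17, *Slc17a7* at 0.21 and *Cux2* at −0.20. edgeR and DESeq2 called 0 genes of these 5 lists in the interaction, against 0% and 0.145% of all genes tested. Outside the microglia list, 1 astrocyte and 1 cerebral glutamatergic gene were higher and 1 astrocyte and 1 granule cell gene lower at an unadjusted p under 0.05. Of all 14472 genes tested, 576 were higher and 435 lower. In the cerebellum alone, 10 of 14 granule cell genes had a log2 fold change below 0 and 3 were lower at an unadjusted p under 0.05. Over all genes tested there, these numbers were 7455 and 243 of 14098. edgeR and DESeq2 each called 1 of the 14 lower, *Grm4*, against 0.00709% and 0.114% of all genes tested. Whether RNA from other cells contributed to the HD effects was not tested.

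**Figure D3:**
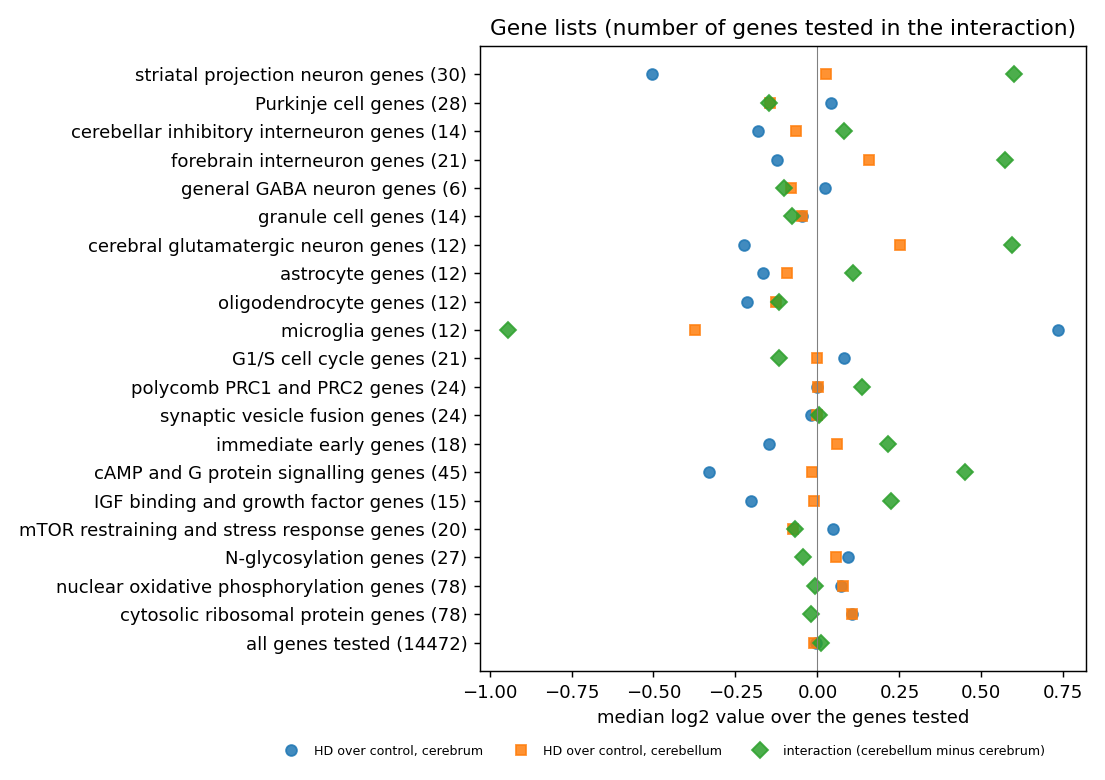
Median log2 HD effect of each gene list in either tissue, and median log2 interaction, beside those of all genes tested. The striatal projection neuron genes have a median of −0.51 over 30 genes in the cerebrum and 0.03 over 25 in the cerebellum.

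Lists of other processes had median interactions between −0.12 and 0.23, with 0 edgeR calls in each, against 0% of all genes tested. At an unadjusted p under 0.05 at most 3 genes of a list were higher and 3 lower, against 576 and 435 of 14472. The 3 higher were reached by the polycomb and vesicle fusion lists, of 24 genes each, and the 3 lower by the vesicle fusion list. The median was 0.22 for 18 immediate early genes, which include *Egr1* (0.15), *Junb* (0.08) and *Egr3* (0.31), and 0.23 for 15 insulin-like growth factor and neurotrophin genes, which include *Igfbp6* (0.26), *Igfbp4* (0.47) and *Ntrk2* (0.35). It was 0.14 for 24 polycomb genes, 0.01 for 24 synaptic vesicle fusion genes and −0.12 for 21 genes of the G1/S step. Polycomb members *Cbx6* and *Phc2* had −0.27 and −0.20, and vesicle genes *Cplx1*, *Snap25* and *Syp* had 0.02, 0.67 and −0.20. The cell cycle genes *Cdkn2d*, *Plk2* and *Cdk4* had −0.12, 0.55 and −0.18. Cerebral *Snap25* was at 1596, 1919 and 2405 CPM in HD mice 3, 5 and 6, whose libraries stood apart. It was at 4558, 3926 and 2360 CPM in HD mice 1, 2 and 4. Cerebral *Plk2* was at 115, 131 and 143 CPM in the former and 139, 196 and 236 CPM in the latter. For 20 mTOR restraining and stress genes it was −0.07, with *Hspa5* at 0.34, *Atf4* at 0.01 and *Ddit4* at −0.35. For 27 N-glycosylation genes it was −0.04, for 78 nuclear oxidative phosphorylation genes −0.01 and for 78 cytosolic ribosomal protein genes −0.02. DESeq2 called *Ccnd1* among the cell cycle genes and *Homer1* among the immediate early genes, and 0.145% of all genes tested.

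The same interaction was compared with that in vGluT2 neurons, from 22 IP libraries of 11 mice, where edgeR called 32 of 14489 genes (0.221%). The difference between the lines was called by edgeR for 3 of 14489 genes (0.0207%), among them *Zfpm1* and *Clstn2*, and by DESeq2 for 19. *Zfpm1* encodes a cofactor of GATA factors and *Clstn2* a calsyntenin of the postsynaptic membrane. Their interactions in *Gad2* neurons were −0.12 and −0.05, against 1.43 and −1.40 in vGluT2 neurons, which gave differences of −1.55 ± 0.24 and 1.36 ± 0.23 (adjusted p 0.00938 and 0.0209). *Arpp19* had −0.01 in vGluT2 neurons, and its difference between the lines was 0.93 ± 0.26 (adjusted p 0.5). *Kcnk2* had 1.17 ± 0.19 in vGluT2 neurons (adjusted p 0.0243) and *Ccnd1* 2.06 ± 0.25 (adjusted p 0.00662), both with the sign they had in *Gad2* neurons, and their differences between the lines had adjusted p of 0.886 and 0.683. *Grm4* had −1.09 ± 0.15 (adjusted p 0.0105) and *Igfbp5* −1.36 ± 0.19 (adjusted p 0.00951) in vGluT2 neurons.

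In total RNA of the same tissues, from 26 libraries of the *Gad2* and vGluT2 lines, edgeR called the interaction for 31 of 14885 genes (0.208%), 19 higher and 12 lower, and DESeq2 called 1465, with 5684 genes at an unadjusted p under 0.05 in edgeR. With the tissues fitted alone, edgeR called 3704 of 14477 genes (25.6%) in cerebellar total RNA and 0 of 14949 in cerebral total RNA, where 545 had an unadjusted p under 0.05. The 12 libraries of the *Gad2* line alone gave 0 edgeR calls, with 191 genes at an unadjusted p under 0.05. The values that follow are from the fit of both lines together, and total RNA comes from all cells of the tissue. They are therefore not values of *Gad2* neurons. *Ccnd1* had 1.64 ± 0.14 (adjusted p 8.12e-07) and *Rasal1* −1.34 ± 0.27 (adjusted p 0.0346), with the signs they had in *Gad2* IPs. *Clstn2* had −0.82 ± 0.15 (adjusted p 0.00996), *Igfbp5* −1.23 ± 0.16 (0.000517) and *Cplx1* 0.79 ± 0.17 (0.0465). *Arpp19* had −0.45 ± 0.38 (adjusted p 0.355) and *Kcnk2* 0.46 ± 0.15 (adjusted p 0.0955). *Adora2a* and *Scn4b* of the striatal list were among the 31, at 1.68 ± 0.26 and 0.82 ± 0.16, and were looked up after their values were seen.

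*Htt*, which carries the expanded repeat, was at 48.7 to 77.8 CPM (median 67.1) in controls and 34.7 to 63.6 (median 47.1) in HD mice in the cerebrum. In the cerebellum it was at 49.8 to 120.1 CPM (median 98.8) in controls and 56.6 to 70.2 (median 65.6) in HD mice. The groups overlapped in both tissues, and the log2 fold changes were −0.47 ± 0.14 (adjusted p 0.465) and −0.60 ± 0.18 (adjusted p 1), with an interaction of −0.07 ± 0.22 (adjusted p 0.94). *Rpl22*, the gene of the tagged ribosomal protein, had an interaction of −0.19 ± 0.19 (adjusted p 0.776), and its paralogue *Rpl22l1* had −0.14 ± 0.24 (adjusted p 0.881).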

How the data were processed

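Counts were estimated counts per gene that the authors deposited, made from paired-end TruSeq stranded mRNA libraries with STAR and Salmon on GRCm38.p6 per the submitters' processing notes. Of 55401 genes, 55141 matched GENCODE M21; spike-ins, at most 2.06% of counts, were left out, and the 8.26% of values in the 24 libraries that were not whole were rounded. Protein-coding genes averaging more than 10 counts were tested in R 4.3.3 with edgeR 4.0.16 (TMM, quasi-likelihood test, legacy = TRUE, the default of this version), with the mouse, tissue, and genotype by tissue. Both libraries of a mouse bear the same animal number in the labels (correlations of their residuals −0.249 to 0.522). A Benjamini-Hochberg adjusted p of 0.05 or less was a call. DESeq2 1.42.0 was run beside edgeR. The averaged effect used voom and duplicateCorrelation (0.124) of limma 3.58.1. Each tissue was also fitted alone, total RNA without the mouse. Levels were CPM scaled by TMM over the 24 libraries, with 0.1 added before the log2 of mouse differences. The interaction (edgeR and DESeq2), a fit within 1 tissue and the averaged effect were tested on simulated data. Chi-square per degree of freedom between replicates was at least 15.0, so libraries differed by more than counting noise; mouse, IP and library variation were not separated. Members and gene lists were chosen with earlier results of these data known. Named were the interaction calls or, up to 24, the genes of smallest p, the genes called in each tissue or averaged (up to 5), up to 3 members of each list with the highest level per length, and genes set beforehand; some genes that met this rule are not reported. Figures used Python 3.11.15 and matplotlib 3.10.9.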

Additional observations from a re-analysis of the deposited data

Results flagged for a closer look

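In 11 of 108 groups of 6 values examined, the most distant mouse lay farther from the others than a 95% limit for a single stray value allows, and chance gives about 1 in 20 groups. The cerebellar library of HD mouse 6 held 93692505 counts, against 26873270 to 46394707 in the other HD mice, and it had been sequenced again. The summed CPM of astrocyte genes in cerebellar control mouse 5 was 4820, against 5832 to 6364 in the other controls. The summed CPM of general GABA neuron genes in cerebral HD mouse 1 was 4259, against 4975 to 5199.

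*Ddit4l* stood apart in HD mouse 4 in the cerebrum, at 5.22 CPM against 2.41 to 3.13, and in HD mouse 2 in the cerebellum, at 0.406 against 0.0271 to 0.153. Single mouse differences between the tissues stood apart for *Prss23* in control mouse 5 (−4.21), *Id4* in control mouse 2 (−0.42), *Plcd3* in HD mouse 4 (0.94), *Rnf123* in control mouse 2 (0.79), *Homer1* in control mouse 6 (−1.77) and *Fam81a* in control mouse 1 (−4.34). *Id4* and *Rnf123* share control mouse 2, without which *Id4* was called in the interaction.

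The effects in *Gad2* and vGluT2 neurons differed, by a test of the difference of the interactions, for *Zfpm1* (−1.55) and *Clstn2* (1.36). The causes of these values were not tested.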

How the results depend on the processing

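The interaction count of 0 became 21 with DESeq2 and 2 with TMM factors within each tissue, and it was 0 with DESeq2 size factors, without a filter on low counts, with filterByExpr, with a mean count over 10 in each tissue, with all gene types, and with *Xist* as a covariate, where 552 genes had an unadjusted p under 0.05 against 1011. Without a replicate block (the mouse left out of the model), with the mouse as a random block, and with the pairing of HD and control mice by number added, it was also 0, with 772, 929 and 1455 at an unadjusted p under 0.05. Leaving out each mouse in turn gave 0 to 2.

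The cerebral count of 4 became 75 with DESeq2 and 3 to 20 when each library was left out. With mice of the same number as a replicate block it became 9. Residuals of HD and control mice of the same number correlated at −0.314 to 0.532 in the cerebrum, where the same-numbered control was the closest for 4 of 6 HD mice, and at −0.11 to 0.407 in the cerebellum, for 3 of 6. The cerebellar count of 2 became 22 with DESeq2, 1 with DESeq2 size factors, 1 with filterByExpr, 0 with all gene types, 0 with that replicate block and 0 to 3 when each library was left out. The averaged count of 0 became 1 with edgeR on summed counts and 0 to 2 when each mouse was left out. The difference between *Gad2* and vGluT2 neurons, called for 3 genes, was called for 19 by DESeq2. The total RNA interaction, with 31 calls, had 1465 by DESeq2 and 0 in the *Gad2* line alone, where fewer libraries entered. Other causes were not tested.

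Chosen after seeing the data were the following alternatives. The glmQLFit call of the design uses legacy = TRUE by default in this edgeR version, which made the alternative of that name identical to the reported values. With legacy = FALSE the interaction count was 0, the cerebral count 8 and the cerebellar count 4, and both sets of counts had been seen when the call as designed was kept. Without control mouse 6 and HD mice 3, 5 and 6, which leaves 5 controls and 3 HD mice, the interaction, cerebral, cerebellar and averaged counts were 0, 0, 0 and 0. With the summed level of *Gad1*, *Gad2* and *Slc32a1* as a covariate the interaction count was 0, with 3458 genes at an unadjusted p under 0.05 against 1011, and the cerebral count 4, with 1445 against 1319.

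Among the values of named genes in the interaction, 964 kept their direction and side of the threshold, 23 passed it and 7 changed sign, all of them genes that were not called. With the GABA covariate *Ppp1r1b* was at −0.042 and *Igfbp5* at 0.088. Without the 4 mice *Rpl22* was at 0.041 and *Gad2* at −0.065. *Htt* was at −0.23 to 0.036 when each mouse was left out, and above 0 without HD mouse 4 (0.016), control mouse 1 (0.017) and control mouse 5 (0.036). In the cerebrum 76 values of called genes kept their side and 8 fell short of it, and in the cerebellum 10 and 30. The causes were not tested.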
